A study of Mus musculus with 8 samples.

Results

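A set of 10 genes of the tumour necrosis factor (TNF) family was followed across mouse intestinal organoids cultured with or without RANKL. They were RANK itself (Tnfrsf11a), its ligand RANKL (Tnfsf11) and the soluble decoy receptor osteoprotegerin (Tnfrsf11b), the TNF receptors TNFR1 (Tnfrsf1a) and TNFR2 (Tnfrsf1b), the receptors Tnfrsf12a, Tnfrsf21, Ltbr and Cd40, and the death-inducing ligand TRAIL (Tnfsf10). The list was set by gene name with earlier results of these data known. All 10 were found by symbol among the 54532 genes of the deposited count table. The libraries were 4 of control and 4 of RANKL-treated organoids, grown from small intestine as an epithelium without its surrounding tissue. The study's methods place its mouse lines on a C57BL/6J background and give an age range for its mice as a whole. The genotype and age of the mice behind these libraries, and how much RANKL was added and for how long, are not stated for them in the sources used here. RNA was sequenced from the 3′ end of each transcript (QuantSeq forward kit, single reads of 50 bases), so that a count does not scale with gene length. Because the added RANKL was a protein, Tnfsf11 counts measured only the transcript made by the organoids.

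Receptors of this family sit at the cell surface, bind trimeric ligands, and recruit TRAF adaptors or death-domain proteins. RANK, LTβR, CD40, TNFR2 and FN14 (the product of Tnfrsf12a) signal through TRAF proteins to the canonical and alternative NF-κB pathways, whereas TNFR1 and DR6 (Tnfrsf21) carry a death domain. In the intestine, RANKL made by stromal cells below the follicle-associated epithelium is known for directing epithelial cells to become M cells, which carry luminal antigen to the lymphoid tissue.

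Libraries held between 583663 (control replicate 4) and 7807298 (control replicate 1) counts, and the control group 16214577 against 5763309 in the RANKL group. Values are given in CPM, for which each library's counts were divided by its total (adjusted by edgeR's TMM factor) and set to the same sum, as mean ± SD over 4 libraries. Where a gene has 0 counts in a library, up to 3 counts are still allowed, equal to 0.382 CPM at the highest depth and 5.16 CPM at the lowest. Such limits and count intervals cover counting error only. Reads copied by PCR were not distinguished, and the spread between libraries is left out. The labels number the replicates without saying whether they were separate cultures or animals, so the p-values measure the spread between these libraries, which may be technical. Fold changes and adjusted p-values are from edgeR's quasi-likelihood test with Benjamini-Hochberg adjustment over the 9971 genes that passed its filter on low counts. CPM values were also compared by two-sided exact permutation tests, whose 70 assignments limit p to 0.0286 or more. Among all genes tested, 25.9% passed an adjusted p of 0.05, 13.6% higher and 12.4% lower with RANKL, and in 24.6% the 2 groups of libraries did not overlap.

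The organoids matched their label as epithelium. All 8 epithelial markers examined were tested, and their summed level was 7059 to 8209 CPM in the control and 6725 to 7326 CPM in the RANKL libraries. Of these, Krt18 (log2 fold change -0.70), Cldn7 (-0.53) and Krt19 (-0.30), which encode 2 keratins and a tight junction protein, fell past the threshold and 5 did not pass it. None of the 10 leukocyte markers had enough counts to be tested. Their sums were 3.44 to 8.62 CPM in the control and 4.13 to 9.91 CPM in the RANKL libraries, and Cd3e, Ms4a1, Itgax and Tyrobp had 0 counts in every library. Csf1r and Itgam had the highest means of that list, with 5.29 ± 2.44 and 0.428 ± 0.525 CPM in the control and 4.95 ± 2.42 and 2.19 ± 1.82 CPM in the RANKL group (SD, n = 4 each).

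The members with an upstream region in the RefSeq promoter table (GRCm38.p6) numbered 8 of 10. The 250 bases before the annotated start site are shown, 5′ to 3′, for the 3 tested receptors and ligands whose transcripts rose at least 2-fold, with each CpG dinucleotide in capitals.
Tnfrsf11a chr1:105780473-105780722 (+ strand): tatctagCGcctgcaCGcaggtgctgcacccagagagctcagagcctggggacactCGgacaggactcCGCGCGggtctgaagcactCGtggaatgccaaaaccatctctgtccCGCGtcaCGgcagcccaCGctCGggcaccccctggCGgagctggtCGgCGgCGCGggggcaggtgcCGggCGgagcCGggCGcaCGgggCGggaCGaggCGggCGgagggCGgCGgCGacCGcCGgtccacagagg
Tnfrsf1b chr4:145246871-145247120 (- strand): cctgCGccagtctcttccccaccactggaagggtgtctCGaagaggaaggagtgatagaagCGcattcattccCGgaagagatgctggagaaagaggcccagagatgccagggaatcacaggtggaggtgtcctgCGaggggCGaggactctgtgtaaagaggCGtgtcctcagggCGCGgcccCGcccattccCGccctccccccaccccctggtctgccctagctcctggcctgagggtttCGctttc
Tnfsf10 chr3:27316827-27317076 (+ strand): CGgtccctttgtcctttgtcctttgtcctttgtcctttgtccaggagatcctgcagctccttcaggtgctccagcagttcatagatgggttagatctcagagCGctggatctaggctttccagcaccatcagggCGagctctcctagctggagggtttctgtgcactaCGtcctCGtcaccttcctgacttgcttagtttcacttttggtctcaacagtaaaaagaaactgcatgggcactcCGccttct
The regions are unlike in base composition. That of Tnfrsf11a held 31 CpG dinucleotides at 73.6% G and C, more than 94.8% of the 32851 promoters in the table. The Tnfrsf1b region held 12 at 62.8% and the Tnfsf10 region 6 at 51.6%, against a median of 6 over all promoters. For the other members the number ran from 4 in Tnfsf11 to 18 in Ltbr. On either strand, the NF-κB consensus matched in 0 of the 8 member regions, against 3.90% of all promoters and 4.51% of the promoters of tested genes. The AP-1 letters TGANTCA also matched in 0 of 8 (6.75% of all promoters), and the TATA box letters TATAAA matched once, in Tnfsf11, 32 bases before the start site and on the strand opposite to the gene (12.4% of all promoters). No match says only that these letters are not in this window. Tnfrsf11b and Cd40 were not in the table.

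RANKL raised the transcript of its own receptor. Tnfrsf11a lies on chromosome 1 (105780718 to 105847981, + strand, GRCm38) and encodes RANK, the signalling receptor for the added protein. Its level in the control libraries, replicates 1 to 4, was 28.4, 23.1, 36.2 and 36.1 CPM, and under RANKL it was 148.5, 172.1, 152.8 and 148.8 CPM. Every RANKL library lay far above every control library. The means were 31.0 ± 6.41 and 155.6 ± 11.2 CPM (SD, n = 4 each), 5.03-fold apart. The log2 fold change was 2.39 ± 0.14 (SE; 95% interval 2.11 to 2.66; edgeR, adjusted p = 7.24e-15), and the exact permutation test gave p = 0.0286, the smallest it can give. In bulk samples, more cells with the transcript and more transcript per cell cannot be told apart.

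Osteoprotegerin appeared in every RANKL library and in no control library. Tnfrsf11b (chromosome 15, 54250619 to 54278484, − strand) encodes a secreted receptor that binds RANKL and keeps it from RANK. It had 0 counts in all 4 control libraries, which together held 16214577 counts, and 4, 11, 15 and 9 counts in RANKL replicates 1 to 4. These counts correspond to 6.46, 7.57, 7.82 and 4.94 CPM, or 6.70 ± 1.31 CPM (SD, n = 4). If up to 3 counts are allowed to the control libraries as a group, the 39 RANKL counts were at least 36.0-fold higher. The lower 95% limit of the ratio, from an exact binomial interval on the counts, was 27.9. The exact permutation test gave p = 0.0286. The gene fell below edgeR's filter on low counts and so carries no adjusted p among the 9971 genes. Without that filter its edgeR adjusted p was 8.39e-14, in a fit where 10.8% of 23836 genes passed, and by DESeq2 it was 2.26e-07. The decoy remained scarce beside the receptor: each RANKL library held 3.32 to 5.12 counts of Tnfrsf11b for every 100 counts of Tnfrsf11a.

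The ligand gene Tnfsf11 (chromosome 14, 78277445 to 78308043, − strand) had 0 counts in all 8 libraries. This allows up to 0.186 CPM over the control group, 0.516 CPM over the RANKL group and 0.137 CPM over all libraries, so that no transcript of RANKL was detectable at this depth with or without the added protein.

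Both TNF receptors rose. Tnfrsf1b, which encodes TNFR2, is a receptor without a death domain (chromosome 4, 145213463 to 145246870, − strand). Its control values were 5.60, 3.49, 4.82 and 0 CPM, and its RANKL values 12.9, 17.9, 16.2 and 19.8 CPM. The value of 0 came from control replicate 4, in which a count of 0 allows up to 5.16 CPM, and the groups did not overlap. The means of 3.48 ± 2.48 and 16.7 ± 2.91 CPM (SD, n = 4 each) differed 4.80-fold, with a log2 fold change of 1.92 ± 0.29 (SE; edgeR, adjusted p = 5.27e-06). Summed over libraries, 76 control counts and 101 RANKL counts gave a ratio of 3.68 (95% counting interval 2.71 to 5.03).

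Tnfrsf1a encodes TNFR1, the death-domain receptor for TNF, and rose less (chromosome 6, 125349362 to 125362484, + strand). It was at 89.5, 85.3, 69.9 and 48.2 CPM in the control libraries and at 106.6, 100.5, 101.2 and 128.5 CPM in the RANKL libraries. The groups did not overlap, but the highest control and the lowest RANKL library were close, and control replicate 4 and RANKL replicate 4 stood farthest apart. The means were 73.2 ± 18.7 and 109.2 ± 13.2 CPM (SD, n = 4 each), 1.49-fold apart. The log2 fold change was 0.49 ± 0.14 (SE; 95% interval 0.22 to 0.77; edgeR, adjusted p = 0.00654). This call rested on RANKL replicate 4, without which the log2 fold change was 0.39 with an edgeR adjusted p of 0.0586. Within a library, TNFR2 gained on TNFR1: there were 0 to 6.88 Tnfrsf1b counts per 100 Tnfrsf1a counts in the control and 12.1 to 17.8 in the RANKL libraries.

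**Figure D1:**
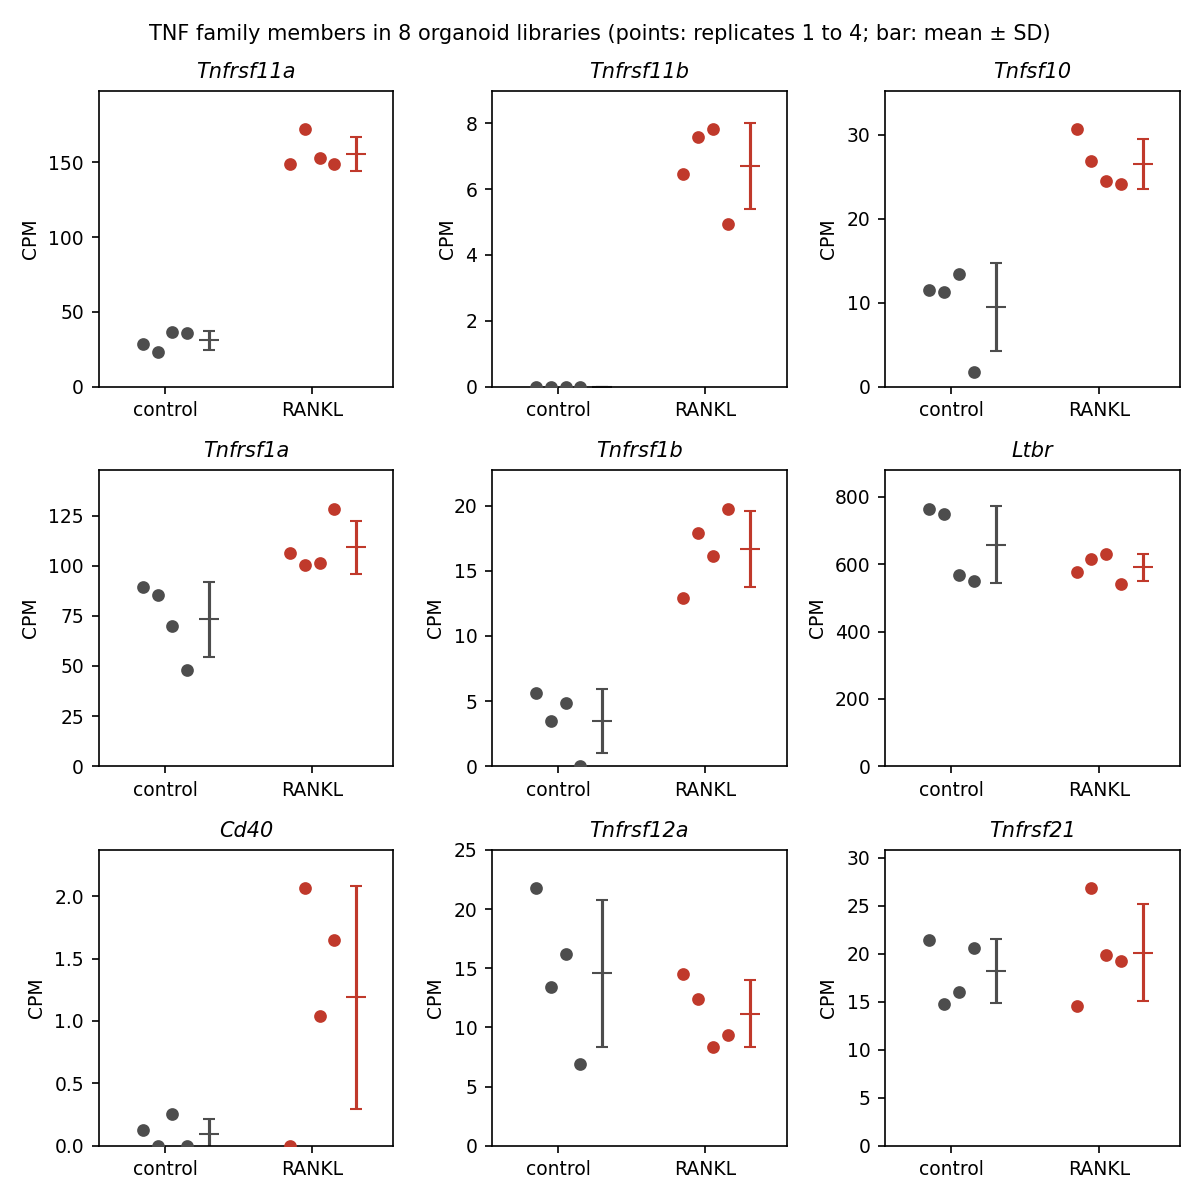
Level of 9 TNF family members in each library, in CPM on a linear axis from 0 with a separate scale per gene, for 4 control (grey) and 4 RANKL (red) libraries. Points are replicates 1 to 4 from left to right and the bar is the mean ± SD. Tnfrsf11a, Tnfrsf11b, Tnfsf10, Tnfrsf1a and Tnfrsf1b show no overlap between groups, whereas Ltbr, Cd40, Tnfrsf12a and Tnfrsf21 do overlap. Tnfsf11, at 0 in all libraries, is not drawn.

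The ligand TRAIL rose as well. Tnfsf10 (chromosome 3, 27317028 to 27342427, + strand) encodes a membrane ligand that triggers death receptors, and its only such receptor in mice is the product of Tnfrsf10b. It was at 11.5, 11.3, 13.4 and 1.72 CPM in the control libraries and at 30.7, 26.8, 24.5 and 24.2 CPM in the RANKL libraries. The lowest control value, in the shallow replicate 4, was a single count. The groups did not overlap, with means of 9.47 ± 5.26 and 26.6 ± 3.00 CPM (SD, n = 4 each) and a log2 fold change of 1.20 ± 0.23 (SE; edgeR, adjusted p = 0.000144).

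Ltbr, the receptor for lymphotoxin and LIGHT, was by far the most abundant member (chromosome 6, 125306571 to 125313885, − strand). It was at 765.0, 748.1, 568.4 and 548.6 CPM in the control and at 578.0, 613.9, 631.6 and 540.4 CPM in the RANKL libraries. The RANKL values fell inside or just below the control range. The log2 fold change was -0.16 ± 0.11 (SE; 95% interval -0.38 to 0.05; edgeR, adjusted p = 0.278), an interval that holds no rise above 0.05. Ltbr and Tnfrsf1a are neighbours on chromosome 6, with 35.5 kb and 1 protein-coding gene (Scnn1a) between them. Per 100 Ltbr counts there were 8.78 to 12.3 Tnfrsf1a counts in the control libraries and 16.0 to 23.8 in the RANKL libraries.

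Tnfrsf12a encodes FN14, the receptor of TWEAK (chromosome 17, 23675445 to 23677468, − strand). Its values were 21.8, 13.4, 16.2 and 6.88 CPM in the control and 14.5, 12.4, 8.34 and 9.34 CPM in the RANKL libraries. The groups overlapped, with control replicate 4 the lowest of all 8 on 4 counts. The log2 fold change was -0.67 ± 0.26 (SE; 95% interval -1.21 to -0.13; edgeR, adjusted p = 0.0602), and the exact permutation test gave p = 0.371. The call turned on single control libraries: the edgeR adjusted p was 0.042 without control replicate 2, 0.0452 without replicate 3 and 0.0297 without replicate 4, and was 0.301 without replicate 1.

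Tnfrsf21 encodes death receptor 6 (chromosome 17, 43016555 to 43089189, + strand). It was at 21.4, 14.8, 16.0 and 20.6 CPM in the control and at 14.5, 26.8, 19.8 and 19.2 CPM in the RANKL libraries. The groups overlapped throughout, and the log2 fold change was 0.21 ± 0.21 (SE; 95% interval -0.22 to 0.63; edgeR, adjusted p = 0.511).

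Cd40 encodes the receptor through which helper T cells activate B cells and other antigen-presenting cells (chromosome 2, 165055627 to 165072948, + strand). It was close to the limit of detection, with 1, 0, 1 and 0 counts in the control and 0, 3, 2 and 3 counts in the RANKL libraries. The 2 and 8 counts gave a ratio of 11.1 with a 95% counting interval of 2.21 to 107.2. The exact permutation test on CPM gave p = 0.143, and without the filter on low counts the edgeR adjusted p was 0.0632. The 10 members have no exon that overlaps an exon of another gene on either strand in GENCODE release M21.

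In all, 7 of the 10 members passed the low-count filter. Of these 7, 4 were higher with RANKL past the threshold (Tnfrsf11a, Tnfrsf1b, Tnfsf10 and Tnfrsf1a), 0 were lower and 3 did not pass it, against 13.6% higher and 12.4% lower among all genes tested. By edgeR at an unadjusted p under 0.05, 1 of the 7 was lower, Tnfrsf12a, and by DESeq2 0 were lower. The median log2 fold change of the 7 was 0.49, against 0.00017 over all genes. Groups did not overlap for 4 of the 7, against 24.6% of genes tested, nor for Tnfrsf11b, which was not tested. Of the 4, Tnfrsf1b and Tnfsf10 passed the low-count filter through their RANKL levels. The members were also chosen with earlier results of these data known, so these counts and the median are a description. With control replicate 2, 3 or 4 left out in turn, 6 of 8 members tested passed each time, among them Tnfrsf11b and Tnfrsf12a. Of the 6, 5 were higher and 1, Tnfrsf12a, was lower. Over all genes in those 3 fits, 2456 of 10129, 2454 of 10128 and 2559 of 10255 passed.

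**Figure D2:**
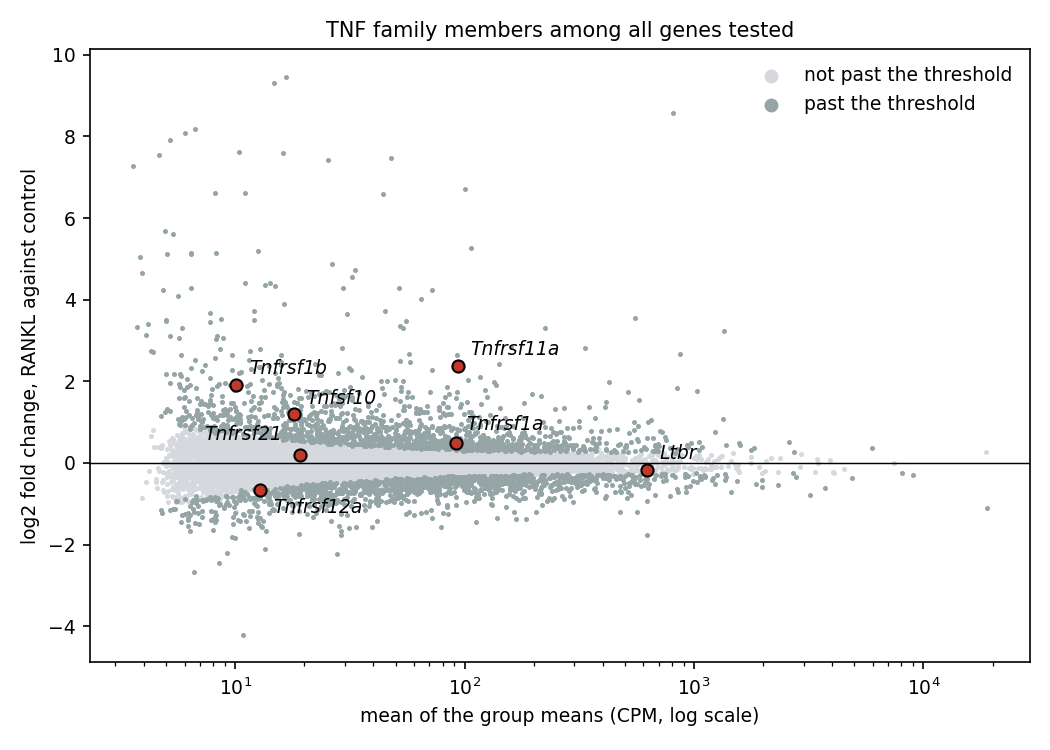
Log2 fold change of RANKL against control (vertical axis) by mean of the group means in CPM (horizontal log axis) for the 9971 genes tested. Darker grey points passed an adjusted p of 0.05, and the 7 members tested are in red. Tnfrsf11a (2.39) and Tnfrsf1b (1.92) lie among the higher genes at their level, and Ltbr (-0.16) lies near 0 at the high end of expression.

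The order of the members shifted with treatment. In the control libraries the order by mean level was Ltbr, Tnfrsf1a, Tnfrsf11a, Tnfrsf21, Tnfrsf12a, Tnfsf10, Tnfrsf1b and Cd40, with Tnfrsf11b and Tnfsf11 at 0. The ranges of the first 4 did not overlap, whereas from Tnfrsf21 down to Cd40 each overlapped the next. In the RANKL libraries Tnfrsf11a moved to the second place, above Tnfrsf1a, and Tnfsf10 to the fourth, above Tnfrsf21, Tnfrsf1b, Tnfrsf12a, Tnfrsf11b and Cd40. There each neighbour from Tnfsf10 to Tnfrsf12a overlapped the next, and the others were apart. Comparisons of level between genes rest on 3′ tags, for which no length correction is made.

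Within libraries, RANK rose against TNFR1 and LTβR. Per 100 counts of Tnfrsf1a there were 31.7, 27.0, 51.8 and 75.0 counts of Tnfrsf11a in the control libraries, replicates 1 to 4, against 139.4, 171.2, 151.0 and 115.8 under RANKL. RANK was therefore below TNFR1 in every control library and above it in every RANKL library, in a ratio that no scaling of libraries can move. Per 100 counts of Ltbr there were 3.09 to 6.58 counts of Tnfrsf11a in the control and 24.2 to 28.0 in the RANKL libraries. Of all counts on the 10 members, Ltbr took 78.4% to 83.2% in the control and 60.3% to 65.6% in the RANKL libraries, and Tnfrsf11a 2.57% to 5.46% and 15.9% to 17.6%. The summed level of the members was 662.1 to 943.3 CPM in the control and 896.9 to 980.1 CPM in the RANKL libraries, ranges that overlap.

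**Figure D3:**
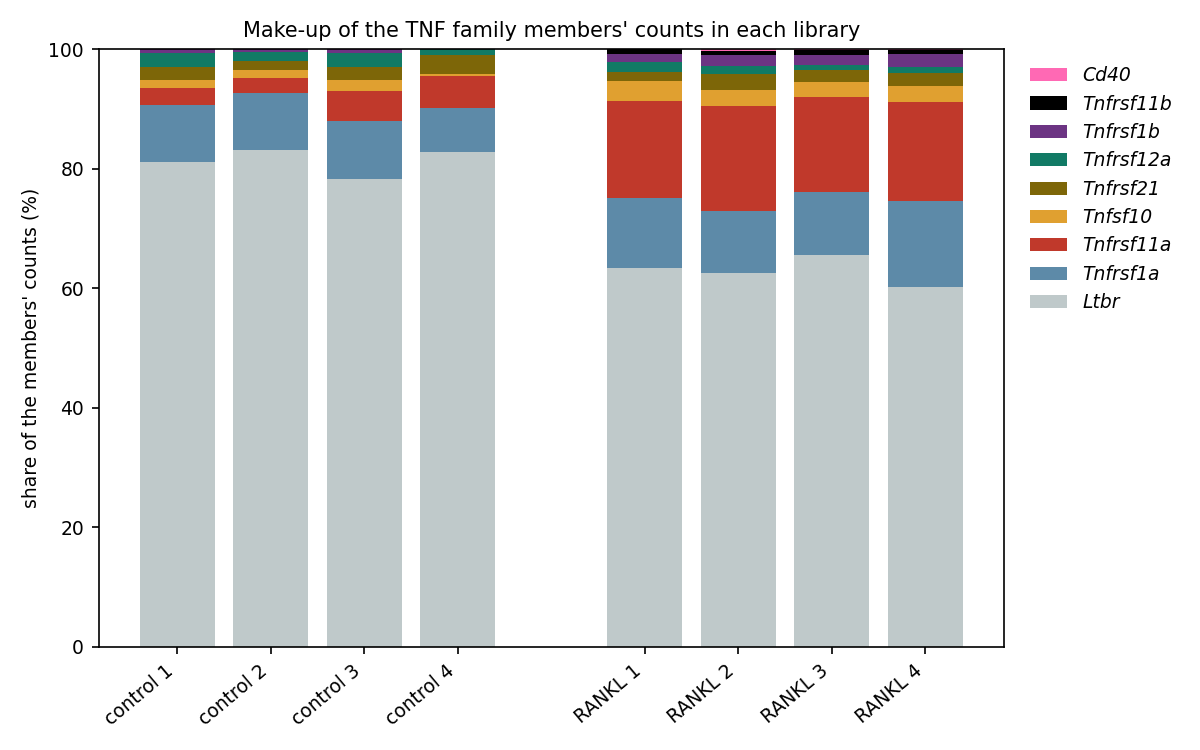
Share of each gene (percent, stacked) in the counts of the 10 members, for each of 4 control and 4 RANKL libraries. Tnfrsf11a (red) takes 2.57% to 5.46% of the control bars and 15.9% to 17.6% of the RANKL bars, and Ltbr (light grey) takes 78.4% to 83.2% and 60.3% to 65.6%.

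Most other TNF family genes had few or no counts in the organoids, and the few that could be tested were higher with RANKL. Of 20 other receptors, 4 were tested and all 4 were higher past the threshold, with a median log2 fold change of 1.54. Relt, a receptor of uncertain ligand, was at 0.416 ± 0.347 CPM in the control and 12.4 ± 3.87 CPM in the RANKL group (log2 fold change 4.28 ± 0.43, SE; edgeR, adjusted p = 3.02e-09). Fas, the death receptor for Fas ligand, was at 1.72 to 5.64 CPM in the control and 9.89 to 19.4 CPM in the RANKL libraries (log2 1.64; adjusted p = 0.000133). Tnfrsf10b, the TRAIL receptor, went from 5.93 ± 2.45 to 18.2 ± 5.32 CPM (log2 1.36; adjusted p = 0.000291), so that ligand and receptor of that pair were both higher. Tnfrsf23, a TRAIL receptor without a death domain, went from 3.76 ± 1.33 to 10.2 ± 1.99 CPM (log2 1.44; adjusted p = 0.0013). Tnfrsf23 has a close paralog in Tnfrsf22, and reads may be split between them. All 4 tested receptors passed the low-count filter through their RANKL levels. Eda2r, at 3.44 to 4.29 CPM in the control and 0 to 2.75 CPM in the RANKL libraries, fell below that filter. That all 4 were higher, and their median, are therefore a description and no result about the receptors. Tnfrsf17, Tnfrsf26 and Edar had 0 counts in all libraries, and 10 of the 20 had at most 10 counts in all.

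Of 16 other ligands, 2 were tested and both rose. Both passed the low-count filter through their RANKL levels, so this count is a description. Tnf, the ligand of TNFR1 and TNFR2, went from 0.945 ± 0.567 to 8.97 ± 1.68 CPM (log2 fold change 3.48 ± 0.39, SE; edgeR, adjusted p = 3.78e-08). Tnfsf15, which encodes TL1A, went from 5.03 ± 1.16 to 20.99 ± 6.44 CPM (log2 2.04 ± 0.25; adjusted p = 2.27e-07). Another 7 ligands had 0 counts in all libraries. For 2 of these, Tnfsf12 (TWEAK, the ligand of FN14) and Tnfsf13, exons overlap those of the read-through gene Tnfsfm13 on the same strand, so that their counts are uncertain. Cd40lg, which encodes the CD40 ligand, was another of the 7.

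**Figure D4:**
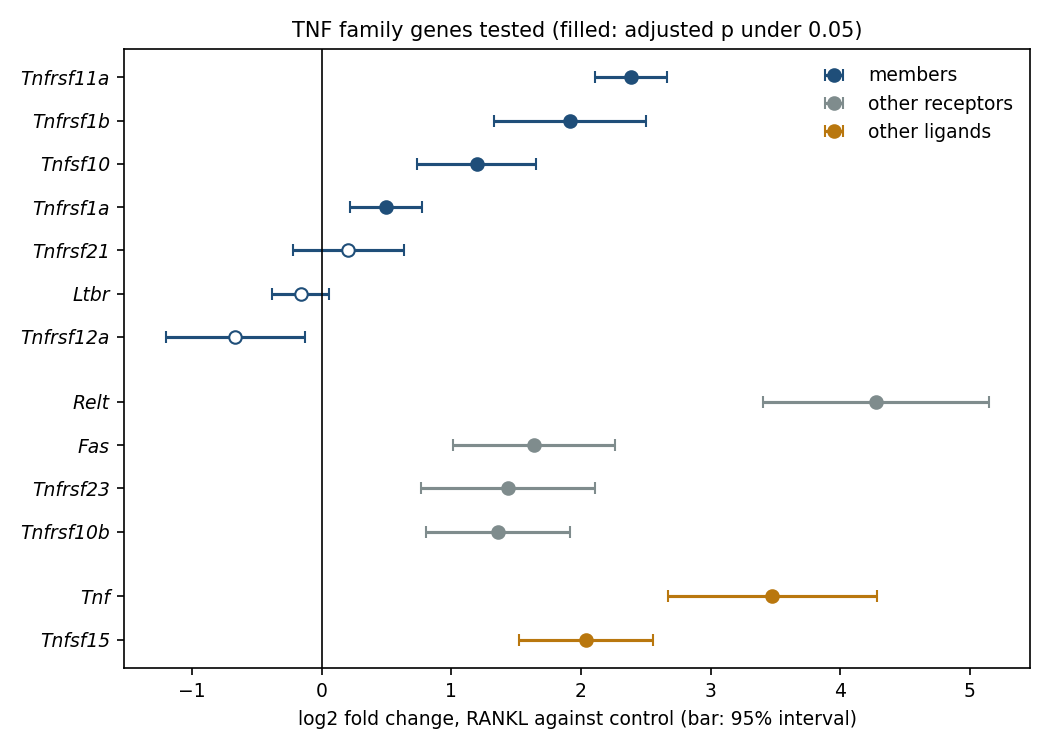
Log2 fold change of RANKL against control with its 95% interval for the 13 TNF family genes tested, 7 of them members, 4 other receptors and 2 other ligands. Filled points passed an adjusted p of 0.05 in edgeR. The largest is Relt at 4.28, and the 3 open points are Tnfrsf21, Ltbr and Tnfrsf12a.

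Below the filter, 8 other family genes had at least 10 counts, and 5 of them are named here after their values were seen because their groups differed in the exact permutation test (p = 0.0286 for each, the smallest it can give, unadjusted for 8 tests). Ltb, which encodes lymphotoxin β, a ligand of LTβR, had 0 counts in all control libraries and 2, 6, 4 and 4 in RANKL replicates 1 to 4, at least 14.8-fold higher if 3 counts are allowed to the controls as a group, with a lower 95% limit of the ratio, from the exact binomial interval, of 10.7. Tnfrsf4, which encodes OX40, had 11, 4, 7 and 1 counts in the control and 5, 14, 7 and 16 in the RANKL libraries (ratio 5.06, 95% counting interval 2.98 to 8.82). Tnfrsf19, an epithelial receptor also called TROY, had 7, 5, 1 and 0 against 1, 8, 5 and 17 counts (ratio 6.61, interval 3.36 to 13.8). These 3 passed in edgeR without the filter, with adjusted p-values of 1.1e-05, 1.77e-05 and 8.92e-05. Eda2r, a receptor for ectodysplasin A2, had 64 control and 12 RANKL counts (ratio 0.52, interval 0.255 to 0.972) and Tnfsf13b, which encodes BAFF, had 24 and 2 (ratio 0.231, interval 0.0265 to 0.93). Neither passed without the filter, at adjusted p-values of 0.259 and 0.197.

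Downstream of the receptors, the proximal signalling genes split. Of 22 listed, 20 were tested, of which 8 were higher past the threshold, 1 was lower and 11 did not pass it, with a median log2 fold change of 0.25. The largest rises were in Tnfaip3, which encodes the ubiquitin-editing inhibitor A20 (log2 fold change 3.05 ± 0.34, SE; edgeR, adjusted p = 2.34e-08), and Birc3, which encodes cIAP2 (2.20 ± 0.19; adjusted p = 1.43e-10). Map3k14, which encodes the alternative-pathway kinase NIK, rose by 1.73 ± 0.21 (edgeR, adjusted p = 1.76e-07). One of its exons overlaps 1700028N14Rik on the same strand. Tnfaip3 and Map3k14 passed the low-count filter through their RANKL levels, so the counts for this list and its median are a description. Traf3 and Traf2, whose products hold NIK in check, rose by 1.06 ± 0.15 and 0.87 ± 0.16, and Cyld, a deubiquitinase that restrains the pathway, by 0.86 ± 0.12. Traf6, the adaptor that couples RANK to canonical NF-κB, was at 9.94 ± 2.13 and 11.7 ± 5.77 CPM (log2 fold change 0.20 ± 0.31, SE; edgeR, adjusted p = 0.679). It was chosen for naming as the RANK adaptor, outside the rule on size of change, as was Tab2, a TAK1-binding protein and the one gene that fell (-0.34 ± 0.11; edgeR, adjusted p = 0.0268).

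All 9 NF-κB subunits and inhibitors were tested and higher past the threshold, with a median log2 fold change of 2.83. They included the alternative-pathway pair Nfkb2 (8.68 ± 3.17 to 102.7 ± 18.9 CPM, log2 3.48) and Relb (39.8 ± 2.70 to 407.3 ± 40.7 CPM, log2 3.32). The inhibitors Nfkbie, Nfkbia and Nfkbib rose by 3.31, 3.24 and 1.25, and the coregulator Bcl3 by 2.83 on the log2 scale. The largest edgeR adjusted p among these 6 was 1.26e-05, that of Nfkbib. Nfkb2 and Nfkbie passed the low-count filter through their RANKL levels, so the count of 9 and its median are a description.

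Among markers of other cell types, the tested M cell markers were higher with RANKL, and of the stromal and endothelial markers only Pdgfrb could be tested. Of 11 M cell markers, 8 were tested and all 8 were higher past the threshold, with a median log2 fold change of 4.00 and sums of 139.5 to 183.5 CPM in the control and 2167 to 2495 CPM in the RANKL libraries. Spib, the transcription factor that M cells need, went from 4.35 ± 1.42 to 1607 ± 123.9 CPM, and Sox8, Tnfaip2, Ccl20, Marcksl1 and Anxa5 rose by 5.61, 4.72, 4.28, 3.71 and 3.31 on the log2 scale. Spib, Sox8, Tnfaip2, Ccl20 and Marcksl1 passed the low-count filter through their RANKL levels, so the count of 8 and its median are a description. The mature M cell marker Gp2 had 0 counts in every library. The part of M cell content in the rise of Tnfrsf11a, Tnfrsf11b and the other members was not tested.

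Stromal markers summed to 4.71 to 20.6 CPM in the control and 21.3 to 26.6 CPM in the RANKL libraries. Most of the RANKL sums was Pdgfrb alone, at 17.2 to 23.5 CPM there and 2.16 to 5.37 CPM in the control libraries. Of the 10, only Pdgfrb had enough counts to be tested, and it rose from 3.87 ± 1.63 to 19.0 ± 2.99 CPM (log2 fold change 2.53 ± 0.30, SE; edgeR, adjusted p = 6.97e-08). Pdgfrb passed the low-count filter through its RANKL levels. The part of stromal RNA in the members' changes was not tested. Dcn had 0 counts in all libraries, and Acta2 was at 4.68 ± 5.25 CPM in the control and 2.61 ± 0.883 CPM in the RANKL group. Endothelial markers summed to 1.77 to 3.44 and 1.10 to 2.09 CPM, with none of the 6 tested, Cdh5 and Kdr at 0 in every library, and Pecam1 and Vwf the highest at 1.74 ± 1.19 and 0.353 ± 0.28 CPM in the control.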

How the data were processed

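The deposited values are raw counts per gene, whole numbers without normalization, which the authors made by trimming reads with BBDuk, removing abundant sequences with bowtie2, aligning to GRCm38 with STAR and counting with featureCounts by strand on Ensembl release 94. Total counts of 583663 to 7807298 per library set the precision. Identifiers were joined to symbols by a gene name table. Positions come from GENCODE release M21 and upstream regions from RefSeq (GRCm38.p6).

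Groups follow the sample labels. The fit of RANKL against control used edgeR 4.0.16 in R 4.3.3 (TMM factors, filterByExpr, quasi-likelihood test, no covariate, Benjamini-Hochberg threshold of 0.05) on 9971 genes. The study's methods name DESeq2, run here (1.42.0) as an alternative beside limma-voom (3.58.1), other scalings, filters and thresholds, a replicate block, a library-total covariate and each library left out. The steps were tested on simulated data. CPM values were compared with exact permutation tests (scipy 1.17.1). For genes below the filter, the ratio of summed counts has an exact binomial interval. Ratios within a library, and the values of family genes below the filter, were added after the data were seen and carry no adjusted p beyond the fit without a filter.

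The members and the 9 gene lists were chosen with earlier results of these data known. Genes named are all members and, from each other list, up to 6 past the threshold with the largest change, plus the 2 highest leukocyte, stromal and endothelial markers. Exceptions are stated where they occur. Genes named only as at 0 or for an exon overlap also stand outside that rule. One gene of a marker list is not reported here.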

Additional observations from a re-analysis of the deposited data

How the results depend on the processing

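Each result was computed under 8 alternatives in scaling, test, filter and covariate, and without each of the 8 libraries. Tnfrsf11a, Tnfrsf1b and Tnfsf10 kept their rise and their call under every alternative in which they were tested, with log2 fold changes of 2.27 to 2.52, 1.81 to 2.79 and 1.11 to 1.47. Ltbr and Tnfrsf21 passed under none. Tnfrsf1a lost its call without RANKL replicate 4, and lies under a fold of 2. Tnfrsf12a passed without control replicate 2, 3 or 4 and without the low-count filter (log2 fold change -0.72, edgeR adjusted p = 0.0383), and did not pass, at -0.16, with the library total as a covariate. The count of members past the threshold was 4 to 6 with 1 library left out, 6 without a filter (with Tnfrsf11b and Tnfrsf12a), 5 by DESeq2 (with Tnfrsf11b) and 3 with a fold of at least 2. It was 2 where at least 10 counts in every library were required, which left 3 members to test. Over all genes the count was 1636 at an adjusted p of 0.01 and 577 with a fold of at least 2, both stricter by construction, and 1853 to 2601 with 1 library left out. Replicate numbers showed no clear pairing of the samples (correlations of -0.01, -0.03, 0.10 and 0.04 between same-numbered libraries), and 2 of 4 matched their own number best. Counting noise in the shallow libraries lowers such correlations, so this check cannot exclude pairing. With the replicate number as a block, 2610 genes and 4 members passed, and no member's call changed. Counts between libraries of one group differed by more than counting noise (chi-square per degree of freedom of 1.25 to 11.9), so none were merged for the fits. The ratios of summed counts pool the libraries of a group, and their intervals leave out this added spread. Depth limits the reading of Cd40, Tnfsf11 and control replicate 4, in which a count is worth 1.72 CPM. No member's group of 4 libraries held one that stood apart by Dixon's test (0 of 17 groups).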
